A study of Capra hircus with 6 samples.

Results

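The genes of the proteasome were examined in goat intramuscular preadipocytes, precursors of the fat cells found between muscle fibres, with and without silencing of the endothelial lipase gene LIPG. A gene was taken when its name in the deposited FPKM table began with PSM, a letter from A to G and a digit, which gave 44 of 27271 genes. Of these, 7 were alpha subunits of the core (PSMA), 10 beta subunits of the core (PSMB), 5 ATPases (PSMC) and 12 PSMD genes of the regulatory particle (its non-ATPase subunits, with the base assembly chaperones PSMD5 and PSMD10), 4 activators (PSME), 1 inhibitor (PSMF1) and 3 assembly chaperones (PSMG). The other two, PSMC3IP and PSME3IP1, match the naming pattern but code for interacting proteins, so that 42 genes were named subunits or regulators. PSMA2, PSMB6, PSMC6, PSMD9, PSMD14 and PSMG3 were not analysed here. Enough reads to be tested were counted on 36 of the 44 genes, 35 of them subunits or regulators, out of 6574 genes tested in all.

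The cells had been isolated from the longissimus dorsi of 3-day-old Jianzhou goats. The NC groups (n = 3) received a negative control interfering RNA and the Si-LIPG groups (n = 3) one that silences LIPG, and after transfection all 6 cultures were kept in medium with 50 μmol/L oleic acid, a fatty acid that drives lipid storage, for 48 h. Each library was made from poly(A) RNA. The study's methods call its replicates biological. Neither they nor the labels say whether libraries 1 to 3 of a group came from separate animals, so p values measure the spread between these libraries.

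The proteasome is the protease that degrades most ubiquitin-tagged proteins of the cell. Its core is a stack of rings, outer rings of alpha subunits that gate the entry and inner rings of beta subunits that carry the catalytic sites. The regulatory particle binds the chain of ubiquitin, removes it, and unfolds the protein with a ring of ATPases. Activators open the core without ATP, and immune cells and interferon-treated cells exchange the catalytic beta subunits for those of the immunoproteasome. In adipocytes the proteasome degrades, among others, regulators of differentiation and proteins of the lipid droplet.

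Wherever 3 values of a group are listed, they are those of libraries 1, 2 and 3 in that order. The silenced gene itself could not serve as a check of the labels, so that every direction given here rests on the sample titles. No other measurement used here shows which libraries were silenced, and if the titles of the groups were exchanged, every rise given here would be a fall and every fall a rise. At a fold change over 1.5 with p under 0.05 before adjustment in DESeq2, the study's tool, 629 genes were higher and 1064 lower in the Si-LIPG groups. The study reports the opposite balance, with more genes upregulated than downregulated at these thresholds, in numbers that nearly mirror these. Whether the titles or the direction of its contrast account for this was not tested. LIPG (ENSCHIG00000015994) had counts of 0, 2 and 0 in the NC against 0, 2 and 2 in the Si-LIPG libraries. The reads of a library counted on genes numbered 524776 to 703680 in the NC groups and 864882 to 1051230 in the Si-LIPG groups, which was 0.997% to 1.53% and 1.80% to 2.88% of all reads. A count of 0 therefore allows up to 3 reads, or 2.19 to 9.73 CPM (counts scaled to 1000000 reads on genes, with the TMM factors used throughout) depending on the library, highest in NC library 1, and this limit covers counting error only. Of the preadipocyte and mesenchymal markers in the files, 9 of 10 were detected, with DLK1 at 0, and their summed CPM was 21850 to 29708 in the NC groups and 30819 to 37217 in the Si-LIPG groups. Adipocyte markers were near the limit of detection in both groups, at 16.2 to 41.4 and 16.1 to 34.2 CPM in sum for 8 genes, with LPL at 0. The 8 myogenic markers, genes of muscle cells, summed to 995 to 1279 CPM in the NC groups and 944 to 1386 CPM in the Si-LIPG groups. Endothelial markers reached at most 8.96 CPM in sum, with CDH5, CLDN5, KDR and TEK of 7 genes at 0. Immune markers summed to 29.9 to 48.6 CPM and 21.2 to 29.3 CPM, with CD3E, ITGAM and PTPRC of 7 genes at 0, and ALAS2, the only erythroid marker in the files, was at 0. The sums of the preadipocyte and of the immune markers did not overlap between the groups, and their part in the results below was not tested.

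With TMM factors the summed level of the proteasome genes was similar in both groups, while the families of subunits differed. Without these factors the summed share of reads on genes was higher in every Si-LIPG library, at 0.251% to 0.320% against 0.152% to 0.218% in the NC libraries. CPM was computed on the reads counted on genes with TMM factors, which align the bulk of the genes between libraries. The 44 genes summed to 2587, 2252 and 2418 CPM in the NC against 2454, 2480 and 2461 CPM in the Si-LIPG libraries, that is 2419 ± 168 and 2465 ± 13.6 (SD, n = 3). Under this total, the sums of the PSMD genes and of the activators were higher in every Si-LIPG library than in any NC library. The summed alpha subunits and the chaperones were lower in every Si-LIPG library with TMM, whereas per all reads of the files the chaperones were higher in every Si-LIPG library and the alpha sums overlapped, and with TMM the sums of the beta subunits and of the ATPases overlapped. These libraries were made from whole cultures, where fewer cells of a type and less RNA per cell cannot be told apart.

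**Figure D1:**
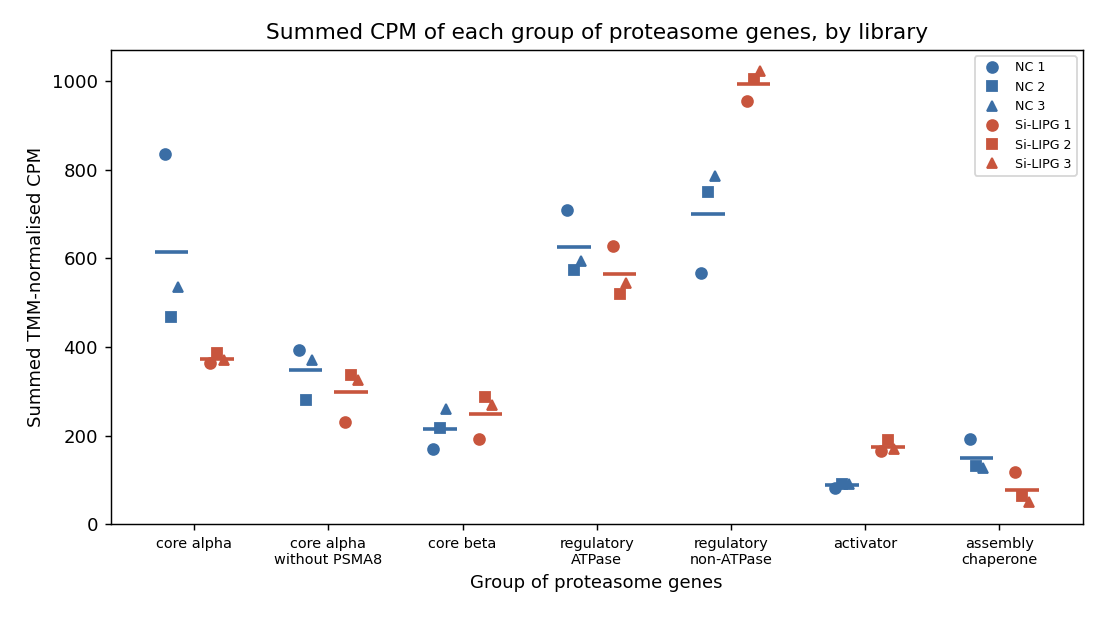
Summed TMM-normalised CPM of each group of proteasome genes in each library. NC libraries are blue and Si-LIPG libraries are red, the marker shape gives the replicate number, and horizontal lines are means of 3 libraries. The activators of the 3 Si-LIPG libraries sit between 166 and 191 CPM, above the NC libraries at 81.1 to 91.4 CPM, and the alpha subunits of NC library 1 stand at 837 CPM through PSMA8.

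Single genes were tested with edgeR's quasi-likelihood test on the counts, where a gene met the criterion if its fold change exceeded 1.5 with an unadjusted p below 0.05. Of the 36 tested proteasome genes, 3 rose in the Si-LIPG groups (PSMA4, PSMD5 and PSME4) and 3 fell (PSMA7, PSMA8 and PSMG2). Over all 6574 tested genes 7.83% were higher and 12.9% lower at this criterion. With the titles as given, the share of proteasome genes called in this fit was near the background for rises and below it for falls, a difference that was not tested. With the titles exchanged it would be below the background for rises and near it for falls. DESeq2 also gave 3 higher and 3 lower of the 36, where 4.24% and 7.17% of 14848 genes were. Those 14848 genes include ones with too few reads for edgeR's test, which the 36 had passed, so these shares are not like for like. Scaling the counts to all reads of the files moved the genes upward as a whole and left 0.0304% of all tested genes lower at the criterion. None of PSMA7, PSMA8 and PSMG2 was among them, with an unadjusted p of 0.441 for PSMA8 in edgeR's test. After Benjamini-Hochberg adjustment over all tested genes 1 of the 36, PSMA8, had an adjusted p under 0.05, where 6.51% of all tested genes did. The groups did not overlap for 12 of the 36 genes, 9 higher and 3 lower in the Si-LIPG groups, where 15.2% and 13.4% of all tested genes had no overlap in these directions. The log2 fold change, given throughout as Si-LIPG over NC, was above 0 for 25 of the 36 genes, where 58.4% of all tested genes were above 0. Its median was 0.35 for the proteasome genes and 0.16 for all tested genes.

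**Figure D2:**
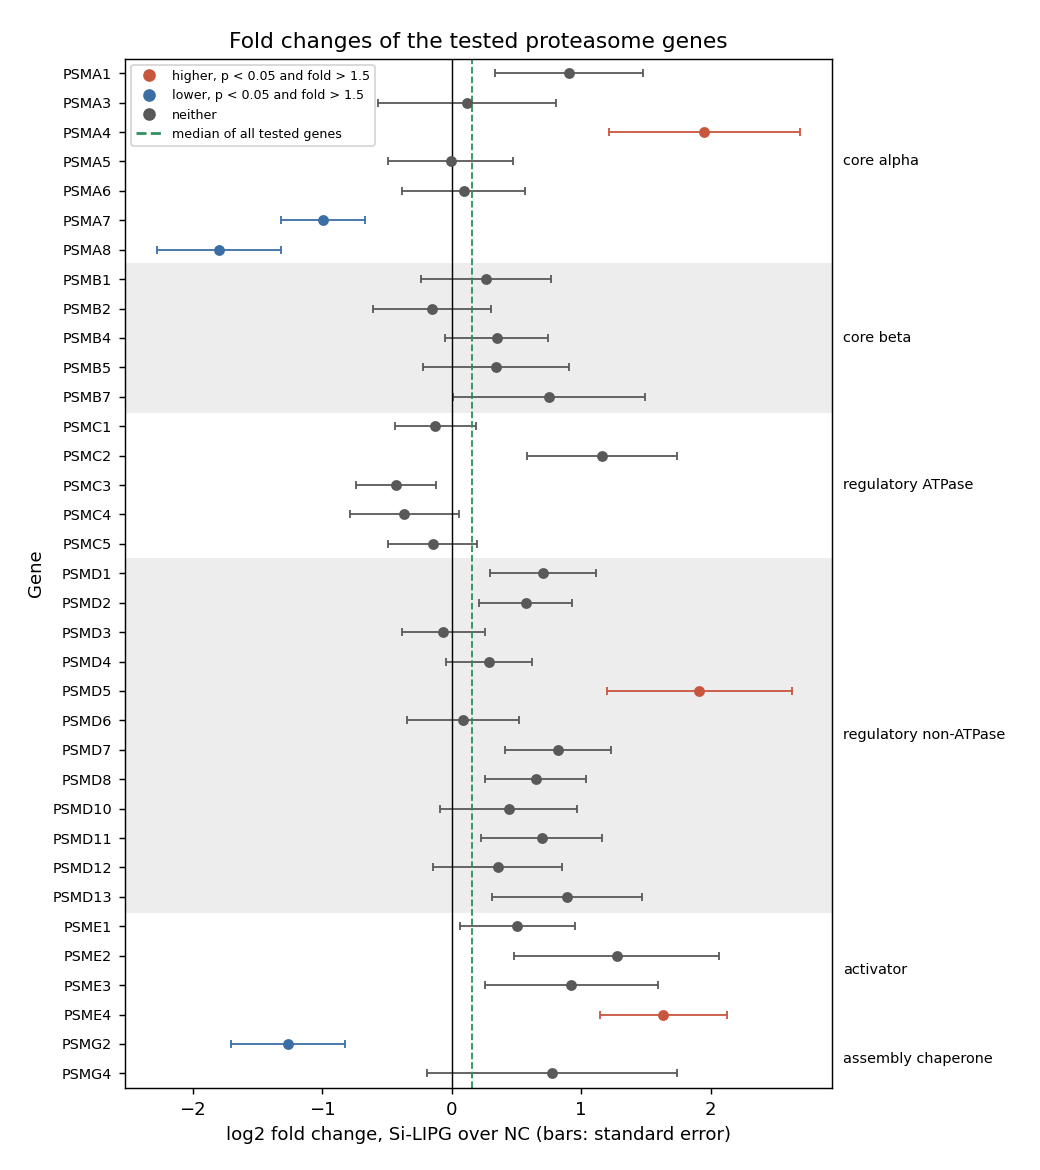
Log2 fold changes of the 35 tested subunits and regulators in the edgeR fit, with standard errors as bars and the median of all tested genes (0.16) as a dashed line. Red points rose and blue points fell at the criterion. The blue points are PSMA7, PSMA8 and PSMG2, and all 4 activators lie to the right of the dashed line.

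Alpha subunits form the outer rings of the core, and they included genes that changed in both directions. All 7 in the files were tested. The median log2 fold change was 0.09, with 1 gene that rose, 2 that fell and 4 whose groups overlapped. Over all tested genes 7.83% rose and 12.9% fell, and 15.2% and 13.4% had no overlap in these directions. With scaling to all reads 4 of the 7 were higher and 0 lower, where 46.1% and 0.0304% of all tested genes were. With the percentage of reads on genes as a covariate 0 were higher or lower, where 2.04% of all tested genes were. The summed level of the alpha subunits was 837, 468 and 536 CPM in the NC against 364, 385 and 371 CPM in the Si-LIPG libraries. Without PSMA8 the sums overlapped, at 392, 281 and 370 CPM against 230, 337 and 326 CPM.

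PSMA8 (ENSCHIG00000018832), the alpha subunit that in mammals is known from spermatocytes and takes the place of PSMA7 there, had counts of 137, 104 and 105 in the NC against 119, 60 and 62 in the Si-LIPG libraries. In CPM these were 444, 187 and 165 against 134, 48.9 and 45.3. NC library 1 was far above the other two NC libraries and Si-LIPG library 1 far above the other two Si-LIPG libraries, yet the groups did not overlap. Its log2 fold change was -1.80 ± 0.48 (SE), with an adjusted p of 0.0411 in edgeR's test. Leaving out 1 library at a time gave values from -2.50 to -1.24 and adjusted p values from 0.00697 to 0.253, above 0.05 without NC library 1 (0.145), NC library 2 (0.0622), Si-LIPG library 2 (0.243) or Si-LIPG library 3 (0.253). In those 4 fits 0 of all tested genes had an adjusted p under 0.05, and the unadjusted p of PSMA8 was 0.0102, 0.00288, 0.0106 and 0.0108 in edgeR's test.

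PSMA8 had the highest median FPKM of all 44 genes over the 6 libraries, through the NC groups. Its FPKM was 304, 201 and 174 in the NC groups, where PSMC3 was at 139 ± 18.7 (SD, n = 3). In the Si-LIPG groups it was 160.2, 71.1 and 68.7, with a mean below those of PSMC3 at 155 ± 21.7 and PSMC1 at 141 ± 7.11. Per gene length, as FPKM, its median over the 6 libraries was 167, against 51.8 for PSMA7, the next alpha subunit by this median, though PSMA7 was below PSMA6 in the mean of the Si-LIPG groups (42.8 against 56.7). PSMA8 took 53.1%, 40.0% and 30.9% of the counts on alpha subunits in the NC against 36.8%, 12.7% and 12.2% in the Si-LIPG libraries. The ratio of its FPKM to that of PSMA7 was 5.94, 3.84 and 2.62 in the NC against 4.05, 1.34 and 1.90 in the Si-LIPG libraries, so that the ratio of Si-LIPG library 1 lay within the NC range. PSMA7 and PSMA8 are similar genes. How reads that match both were counted, or whether they were left out, is not given in the sources used here, so the level of either is uncertain.

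PSMA7 (ENSCHIG00000014692), the alpha subunit of the same ring position in other tissues, had counts of 80, 94 and 139 in the NC against 102, 155 and 113 in the Si-LIPG libraries. Its levels were 259, 169 and 219 CPM against 115, 126 and 82.5 CPM, with no overlap. For PSMA7 the log2 fold change was -0.99 ± 0.32 (SE), with an unadjusted p of 0.0079 and an adjusted p of 0.0797 in edgeR's test. Its unadjusted p in edgeR's test was 0.0701 without Si-LIPG library 3.

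PSMA4 (ENSCHIG00000011938), another gate subunit, went the other way. It had counts of 0, 6 and 9 in the NC against 20, 45 and 67 in the Si-LIPG libraries, that is 0, 10.8 and 14.2 CPM against 22.6, 36.7 and 48.9 CPM. Every Si-LIPG library was above every NC library, and NC library 1, the one with the fewest reads on genes, had none. The log2 fold change was 1.95 ± 0.74 (SE), with an unadjusted p of 0.0183 and an adjusted p of 0.132 in edgeR's test. Without Si-LIPG library 3 its unadjusted p in edgeR's test was 0.0918.

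The remaining alpha subunits, PSMA1, PSMA3, PSMA5 and PSMA6, had log2 fold changes from -0.01 to 0.91 and did not pass the test. PSMA1, the alpha subunit with the lowest median FPKM (6.95), was split within the Si-LIPG groups, at 13.5 CPM in library 1 against 79.8 and 81.8 CPM in libraries 2 and 3. Its NC libraries were between these values, at 25.9, 32.4 and 34.7 CPM. The range of PSMA1 in the Si-LIPG groups thus enclosed that of the NC groups.

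Among the genes that fell, each had another gene close by. RefSeq's annotation of the ARS1.2 goat assembly places SS18 across PSMA8, SS18L1 within 1 kb of PSMA7, and CEP76 within 1 kb of PSMG2. Of the genes that rose, PSMD5 overlaps the uncharacterised LOC102182036, and PSMA4 and PSME4 have no gene overlapping them or within 1 kb. The library kit marks strand with dUTP, but the strand setting of the counting is not given in the sources used here. Reads counted as no feature made up 91.6% to 93.7% of each library. Whether the counts were made on the matching strand was not tested, so that any count here may hold reads from the opposite strand of a gene. Without strand the reads of a gene cannot be told from those of an overlapping gene on the other strand. SS18, part of a chromatin remodelling complex, had counts of 16, 29 and 30 in the NC against 58, 53 and 47 in the Si-LIPG libraries, fewer than PSMA8 in every library. Its log2 fold change was -0.09 ± 0.42 (SE), with an adjusted p of 0.937 in edgeR's test. SS18L1 and CEP76 had at most 4 and 18 counts in a library and were not tested.

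The same feature was counted over all tested genes whose name was found once in that annotation, a comparison chosen after the values were seen. Of 2565 genes with another gene overlapping or within 1 kb, 18.2% were lower and 6.24% higher at the criterion, and of 2528 genes without one, 4.87% were lower and 10.2% higher. The proteasome genes gave 3 lower and 1 higher of 15 genes with such a neighbour, and 0 lower and 2 higher of 19 without one. Lower calls were thus more frequent among genes with a neighbour over all tested genes, and the part of neighbouring genes in the falls of PSMA7, PSMA8 and PSMG2 was not tested.

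**Figure D3:**
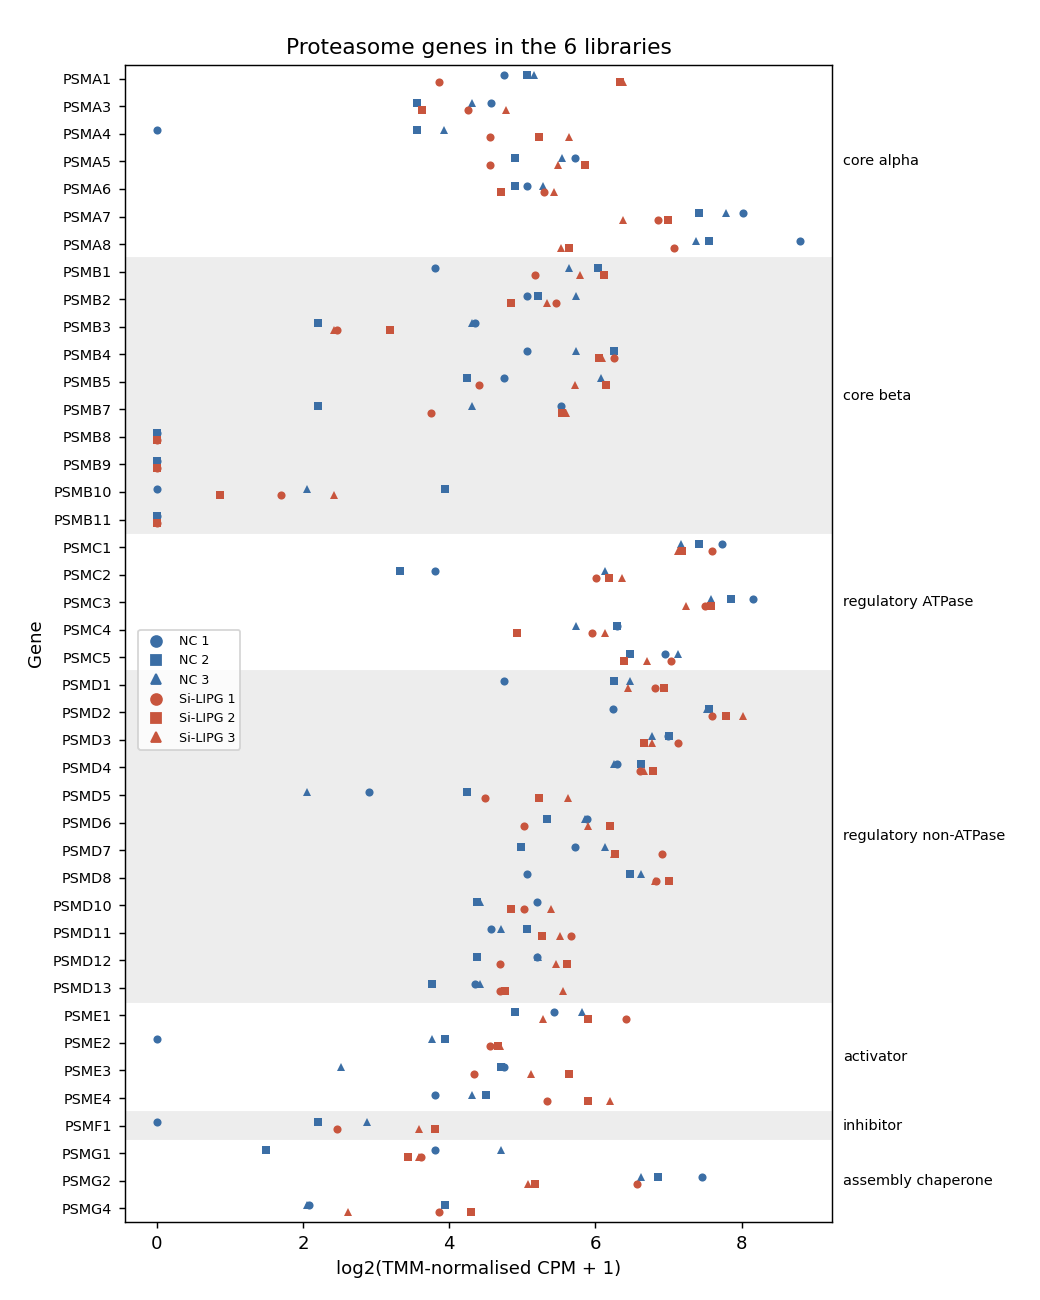
Levels of the 42 subunits and regulators in each library as log2(CPM + 1), with CPM TMM-normalised. Blue symbols are NC libraries and red symbols Si-LIPG libraries, and circle, square and triangle mark replicates 1, 2 and 3. PSMA8 has the highest single value (444 CPM in NC library 1), and PSMB8, PSMB9 and PSMB11 are at 0 in all 6 libraries.

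Beta subunits carry the active sites, and 0 of the 5 tested passed the criterion in edgeR's test in either direction, nor did any at p under 0.05 alone, in edgeR's test or in DESeq2. Library sizes alone gave 1 higher, where 24.2% of all tested genes were, and scaling to all reads 2, where 46.1% were. Their summed level was 169, 216 and 260 CPM in the NC against 193, 286 and 269 CPM in the Si-LIPG libraries, which overlapped. The log2 fold changes ran from -0.15 (PSMB2) to 0.75 (PSMB7), with a median of 0.34.

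PSMB5 (ENSCHIG00000011511), the chymotrypsin-like catalytic subunit, had counts of 8, 10 and 42 in the NC against 18, 86 and 71 in the Si-LIPG libraries. Its levels were 25.9, 18.0 and 66.2 CPM against 20.3, 70.1 and 51.9 CPM, so that both groups spanned low and high values. Its log2 fold change was 0.34 ± 0.57 (SE), with an adjusted p of 0.793 in edgeR's test, and it ran from -0.05 without Si-LIPG library 2 to 1.15 without NC library 3. PSMB7 (ENSCHIG00000016023), the trypsin-like catalytic subunit, had 45.4, 3.60 and 18.9 CPM in the NC against 12.4, 45.6 and 47.5 CPM in the Si-LIPG libraries. The groups overlapped, and its log2 fold change was 0.75 ± 0.74 (SE), with an adjusted p of 0.633 in edgeR's test. That value was 0.22 without NC library 2 and 1.59 without NC library 1.

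The beta subunits of specialised proteasomes were at 0 or near the limit of detection. PSMB8 and PSMB9, catalytic subunits of the immunoproteasome, and PSMB11, the subunit of the thymus, had a count of 0 in all 6 libraries. PSMB10, the remaining immunoproteasome subunit, had counts of 0, 8 and 2 in the NC against 2, 1 and 6 in the Si-LIPG libraries. It was too low to be tested. By median FPKM over the 6 libraries the order of the beta subunits was led by PSMB4 (76.8) and PSMB1 (71.5) and ended, among those with a median above 0, with PSMB7 (15.5), PSMB3 (12.9) and PSMB10 (3.14). PSMB4 and PSMB1, structural subunits without catalytic activity, ranged from 19.9 to 91.4 and from 10.5 to 118 FPKM between libraries, so that their order is within the spread. PSMB3, a structural subunit with counts of 2 to 12, was not tested.

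The ATPases unfold substrates and thread them into the core, and 0 of 5 passed the criterion in edgeR's test or had a p under 0.05 in edgeR's test or DESeq2, while 1 was higher by limma on FPKM, and by edgeR's test with library sizes alone, with no filter on low counts or without NC library 3, and 4 with scaling to all reads. Of all tested genes 24.2% were higher with library sizes alone, 9.87% without NC library 3 and 46.1% with scaling to all reads. By limma on FPKM 19.0% and 23.0% were, with pseudocounts of 0.1 and 1. With no filter 6.70% of 14848 genes were, a set that includes genes with too few reads for the main fit. PSMC3, PSMC1 and PSMC5 had the highest median FPKM of the regulatory particle. PSMC3 had a median FPKM of 143 and a range from 126 to 180 over the 6 libraries, PSMC1 a median of 127 and a range from 93.6 to 149, and PSMC4 the lowest median, 34.5. The ranges of PSMC3 and PSMC1 overlapped. Their summed level was 710, 575 and 594 CPM in the NC against 627, 521 and 543 CPM in the Si-LIPG libraries. The median log2 fold change was -0.15 with TMM, with 4 of 5 genes below 0, but 0.43 with library sizes alone and 1.25 with scaling to all reads.

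PSMC2 (ENSCHIG00000015309) was the exception among the ATPases. Its counts were 4, 5 and 44 in the NC against 56, 88 and 111 in the Si-LIPG libraries, that is 13.0, 9.01 and 69.3 CPM against 63.2, 71.7 and 81.1 CPM. The Si-LIPG libraries were close together, and NC library 3 lay among them while the other NC libraries were far lower. PSMC2 had a log2 fold change of 1.16 ± 0.58 (SE), with an unadjusted p of 0.0646 and an adjusted p of 0.277 in edgeR's test. Leaving out 1 library at a time moved it from 0.70 to 2.75, and without NC library 3, where it was 2.75, its adjusted p in edgeR's test was 0.0365. PSMC3 had 285, 231 and 191 CPM in the NC against 181, 191 and 150 CPM in the Si-LIPG libraries, and a log2 fold change of -0.43 ± 0.31 (SE).

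The non-ATPase subunits of the regulatory particle recognise ubiquitin, scaffold the particle and form its lid. With the 2 chaperones included, the summed level of the PSMD genes was 567, 749 and 785 CPM in the NC against 956, 1005 and 1022 CPM in the Si-LIPG libraries. The sums did not overlap, at 700.5 ± 117 against 994 ± 34.3 (SD, n = 3). Of the 12 PSMD genes, the 2 chaperones included, 1 passed the criterion, 11 had a log2 fold change above 0, and 6 did not overlap between the groups, each of them higher in the Si-LIPG groups. Over all tested genes 7.83% were higher at the criterion, 58.4% were above 0 and 15.2% were higher without overlap. The median log2 fold change was 0.61.

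PSMD5 (ENSCHIG00000021228), a chaperone that helps to assemble the base of the regulatory particle, was the gene that rose. It had counts of 2, 10 and 2 in the NC against 19, 45 and 66 in the Si-LIPG libraries. Its levels were 6.48, 18.0 and 3.15 CPM against 21.4, 36.7 and 48.2 CPM, with a gap of a few CPM between NC library 2 and Si-LIPG library 1. PSMD5 had a log2 fold change of 1.91 ± 0.71 (SE), with an unadjusted p of 0.0169 and an adjusted p of 0.125 in edgeR's test. Its log2 value was 2.98 without NC library 2 and 1.43 without NC library 3, and the unadjusted p in edgeR's test was 0.0643 without NC library 3 and 0.0934 without Si-LIPG library 3. PSMD5 also had the lowest median FPKM of the PSMD genes (7.83), and PSMD3, a lid subunit, the highest (74.5).

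The other PSMD genes without overlap were PSMD2, PSMD7, PSMD8, PSMD11 and PSMD13. PSMD2, a scaffold subunit that binds ubiquitin-like domains, had 74.6, 187 and 183 CPM in the NC against 192, 221 and 259 CPM in the Si-LIPG libraries, where Si-LIPG library 1 was only just above NC library 2. Its log2 fold change was 0.57 ± 0.36 (SE). PSMD7, the lid subunit that pairs with the deubiquitinase, had 51.9, 30.6 and 69.3 CPM against 120, 75.8 and 75.2 CPM, and a log2 fold change of 0.82 ± 0.41 (SE) with an unadjusted p of 0.0623 and an adjusted p of 0.272 in edgeR's test. PSMD8, PSMD11 and PSMD13, all of the lid, had log2 fold changes of 0.65, 0.69 and 0.89 with standard errors of 0.39, 0.46 and 0.58. Each of these 5 genes missed the criterion by its p, and PSMD2 also by its fold change. With at least 10 counts required in every library, PSMD2 (0.82), PSMD7 (1.07) and PSMD8 (0.89) were higher at the criterion, with adjusted p values of 0.0866, 0.0424 and 0.084 in edgeR's test, and with library sizes alone 8 of the 12 non-ATPase genes were, against 24.2% of all tested genes. With that minimum of 10 counts 14.9% of all tested genes were higher at the criterion and 25.9% had an adjusted p under 0.05.

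As a sum the 7 lid subunits (PSMD3, PSMD6, PSMD7, PSMD8, PSMD11, PSMD12 and PSMD13) had 347, 351 and 414 CPM in the NC against 502, 488 and 487 CPM in the Si-LIPG libraries. PSMD3, the lid subunit with the highest median FPKM, had 126, 128 and 109 CPM against 139, 100.2 and 108 CPM and a log2 fold change of -0.06 ± 0.32 (SE). The rest of the PSMD genes (PSMD1, PSMD4, PSMD6, PSMD10 and PSMD12) had log2 fold changes from 0.09 to 0.71, with overlap between the groups for every one of them.

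Activators dock on the core in place of the regulatory particle. Their summed level was 81.1, 90.1 and 91.4 CPM in the NC against 166, 191 and 169 CPM in the Si-LIPG libraries, 87.5 ± 5.63 against 175 ± 13.6 (SD, n = 3). The lowest Si-LIPG library was far above the highest NC library. The median log2 fold change of the 4 genes was 1.10, each was above 0, and 1 passed the criterion. Over all tested genes 58.4% were above 0 and 7.83% higher at the criterion. All 4 were higher with library sizes alone, scaling to all reads and limma on log2(FPKM + 1), where 24.2%, 46.1% and 23.0% of all tested genes were. With the percentage of reads on genes as a covariate 0 were higher, where 1.08% of all tested genes were.

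PSME4 (ENSCHIG00000022596), the large activator of the nucleus that has been linked to the degradation of acetylated histones, had counts of 4, 12 and 12 in the NC against 35, 72 and 99 in the Si-LIPG libraries. Its levels were 13.0, 21.6 and 18.9 CPM against 39.5, 58.7 and 72.3 CPM. Even the lowest Si-LIPG library was well above the highest NC library. The log2 fold change was 1.64 ± 0.49 (SE), with an unadjusted p of 0.00438 and an adjusted p of 0.0578 in edgeR's test. With each library left out in turn it met the criterion every time, with log2 fold changes from 1.43 to 1.78 and adjusted p values from 0.0553 to 0.331.

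PSME1 and PSME2 form the interferon-inducible activator together, and PSME3 forms a related one in the nucleus. PSME1 (ENSCHIG00000009755) had the highest median FPKM of the activators (68.3) and PSME4 the lowest (5.33). PSME1 had 42.2, 28.8 and 55.2 CPM in the NC against 84.6, 58.7 and 38.0 CPM in the Si-LIPG libraries, with overlap through Si-LIPG library 3, and a log2 fold change of 0.51 ± 0.45 (SE). That value ran from 0.14 without Si-LIPG library 1 to 0.80 without NC library 3. PSME2 (ENSCHIG00000023664) had counts of 0, 8 and 8 against 20, 30 and 34, that is 0, 14.4 and 12.6 CPM against 22.6, 24.4 and 24.8 CPM. The groups of PSME2 did not overlap, but at these counts its log2 fold change of 1.27 ± 0.79 (SE) did not pass the test (unadjusted p 0.129 and adjusted p 0.401 in edgeR's test). PSME3 (ENSCHIG00000007996) had 25.9, 25.2 and 4.73 CPM against 19.2, 48.9 and 33.6 CPM and a log2 fold change of 0.92 ± 0.67 (SE), which was 0.42 without NC library 3 and 1.32 without NC library 2. Si-LIPG library 1 was below NC libraries 1 and 2 for this gene.

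Assembly chaperones and the inhibitor bind the core without being part of the active enzyme. PSMG2 (ENSCHIG00000006811), one of the chaperone pair that builds the alpha ring, had counts of 54, 64 and 62 in the NC against 83, 43 and 45 in the Si-LIPG libraries. In CPM it had 175, 115 and 97.7 against 93.7, 35.0 and 32.9, where Si-LIPG library 1 was just below NC library 3. Its log2 fold change was -1.26 ± 0.44 (SE), with an unadjusted p of 0.0122 and an adjusted p of 0.103 in edgeR's test. The unadjusted p in edgeR's test was 0.0684 without Si-LIPG library 2 and 0.0731 without Si-LIPG library 3. Without Si-LIPG library 1 the log2 fold change was -1.95, with an adjusted p of 0.0105 in edgeR's test.

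PSMG1, the partner of PSMG2, had counts of 4, 1 and 16 in the NC against 10, 12 and 15 in the Si-LIPG libraries, too few for the test. PSMG4, a chaperone of another pair, had counts of 1 to 8 and of 7 to 23 and a log2 fold change of 0.78 ± 0.97 (SE), which was 1.92 without NC library 2, 0.49 without NC library 1 and 0.38 without NC library 3. PSMF1, the inhibitor, was not tested, with counts of 0, 2 and 4 against 4, 16 and 15. By median FPKM, PSMG2 (74.1) was the highest of the chaperones and PSMG1 (13.7) the lowest. Of the 2 interacting proteins, PSME3IP1 was tested, with counts of 8 to 12 against 14 to 23 and a log2 fold change of -0.34 ± 0.67 (SE), and PSMC3IP, with counts of 0 to 2 against 2 to 14, was not.

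Scaling decided the direction of several of these values. All 44 genes together had 798, 1250 and 1534 counts in the NC against 2175, 3044 and 3369 counts in the Si-LIPG libraries, which was 0.152%, 0.208% and 0.218% against 0.251%, 0.310% and 0.320% of the reads on genes. Scaled to all reads of the files instead of TMM, the median log2 fold change of all tested genes moved from 0.16 to 1.58, and 46.1% of all tested genes were higher and 0.0304% lower at the criterion. Under that scaling 26 of the 36 proteasome genes were higher and 0 lower, PSMA7 had a log2 fold change of 0.47, PSMG2 of 0.09 and PSMA8 of -0.34. Scaled to the reads on genes without TMM, 16 were higher and 1 lower, where 24.2% and 6.01% of all tested genes were. As counts scaled to 1000000 of all reads, PSMA8 was at 2.60, 2.44 and 2.28 in the NC against 2.48, 1.61 and 1.70 in the Si-LIPG libraries, so that the groups overlapped.

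Relative to the median of all tested genes, the activators and the non-ATPase subunits (here all 12 PSMD genes) stayed above it in the settings given here. The other groups varied. The activators lay 0.94 above that median with TMM, 0.97 with scaling to all reads and 1.01 with a correction for gene length, and the non-ATPase subunits 0.45, 0.39 and 0.41 above it. ATPases lay 0.31, 0.33 and 0.26 below it. Without NC library 1 the activators were 0.87 above, the non-ATPase subunits 0.28 above and the ATPases 0.25 below. When the percentage of reads on genes entered as a covariate the activators were 0.64 and the non-ATPase subunits 0.26 above the median, while the ATPases were 0.17 above it, opposite to these other settings. The beta subunits went from 0.18 above the median with TMM to 0.33 below it with the covariate and 0.09 below it without Si-LIPG library 2, and the chaperones from 0.40 below it to 0.67 above it with the covariate. With this covariate 0 of 36 genes met the criterion or had an unadjusted p under 0.05 in edgeR's test, where 2.04% of all tested genes met it, and PSMA8 had a log2 fold change of 0.15 and PSMG2 of 0.28. The share of reads on genes did not overlap between the groups, so its part in the changes and that of LIPG silencing cannot be told apart.

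**Figure D4:**
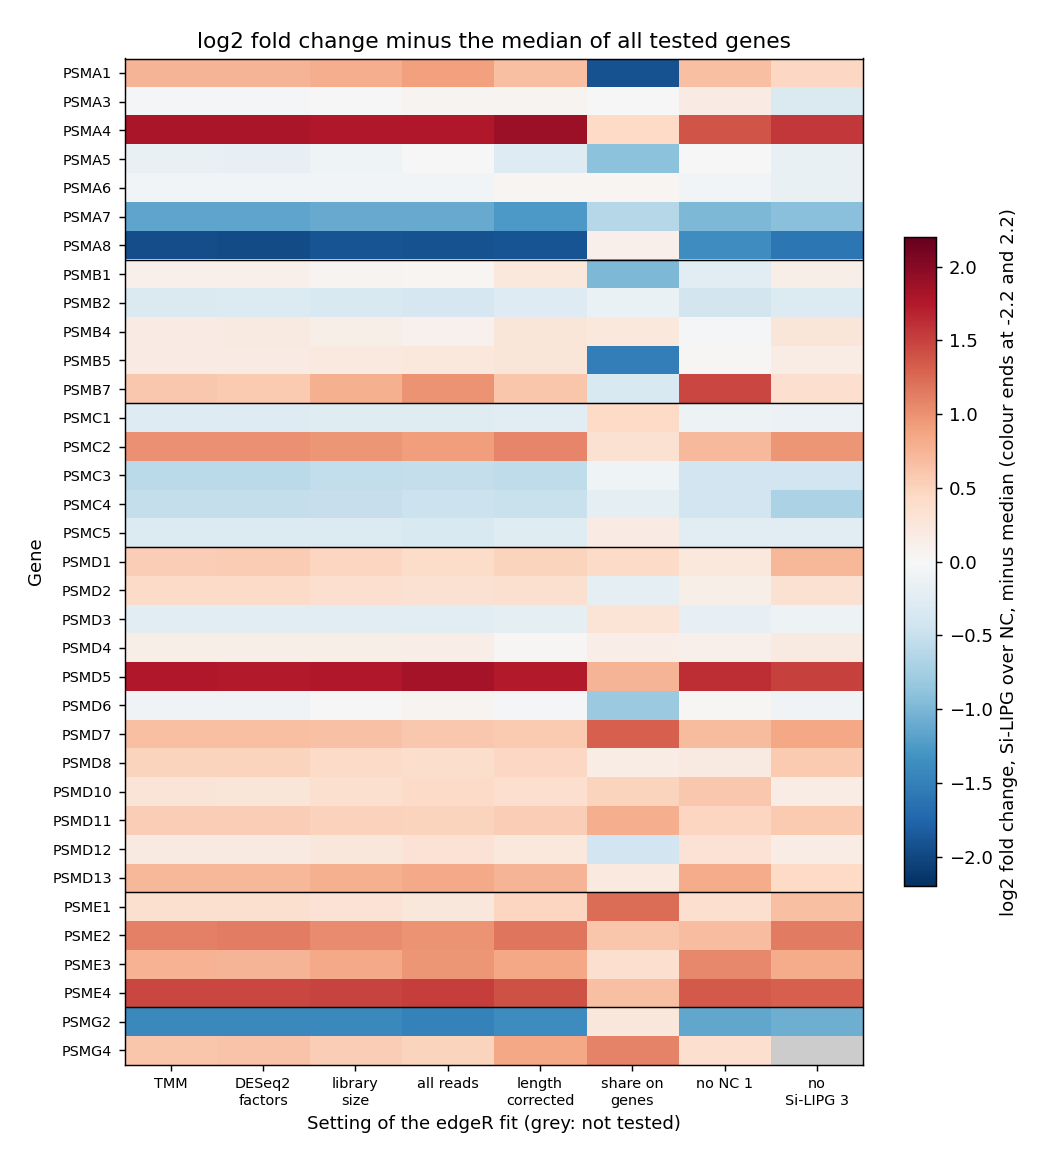
Log2 fold change of each tested subunit or regulator minus the median of all tested genes, in 8 settings of the edgeR fit, as colours from -2.2 (blue) to 2.2 (red), with grey for a gene not tested. Rows of PSMA4, PSMD5 and PSME4 stay red and that of PSMA7 stays blue in all 8 columns, whereas PSMA8 and PSMG2 turn from blue to pale red in the column named share on genes.

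The spread between replicates was of the same order in both groups. The median coefficient of variation of the 36 tested genes was 33.1% in the NC groups and 30.3% in the Si-LIPG groups, larger in the NC groups for 21 genes and in the Si-LIPG groups for 15. NC library 1 was the lowest of the 6 libraries for 9 genes and the highest for 7, and Si-LIPG library 3 was the highest for 12. A count above 0 was found for 36 of the 44 genes in NC library 1 and for 40 or 41 in each of the other libraries.

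Other genes of the ubiquitin-proteasome pathway, taken from a list of 53 genes of which 44 were in the files and 33 were tested, gave 5 higher and 0 lower at the criterion, where 7.83% and 12.9% of all tested genes were, and 0 with an adjusted p under 0.05 in edgeR's test or DESeq2. Their median log2 fold change was 0.37. The genes that rose were PAAF1, ADRM1, UBE3C, ZFAND5 and FAF1. The groups did not overlap for any of them, where 15.2% of all tested genes were higher without overlap. These genes were chosen by the criterion, so their lack of overlap is no separate result.

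PAAF1, a chaperone of the regulatory particle, had counts of 2, 0 and 3 in the NC against 26, 13 and 28 in the Si-LIPG libraries, with a log2 fold change of 2.49 ± 1.02 (SE). ADRM1, a ubiquitin receptor of the regulatory particle, had counts of 0, 15 and 22 against 40, 64 and 107, with a log2 fold change of 1.39 ± 0.64 (SE). UBE3C, a ubiquitin ligase that binds the proteasome, had counts of 7, 7 and 4 against 29, 37 and 70, with a log2 fold change of 1.54 ± 0.62 (SE). All 3 proteins act at the regulatory particle, and a link of their values with those of its PSMD genes was not tested. ZFAND5, a zinc finger protein that binds the proteasome and ubiquitin, had counts of 2, 3 and 9 against 24, 30 and 77, with a log2 fold change of 1.98 ± 0.68 (SE). FAF1, a cofactor of the segregase VCP, had counts of 0, 2 and 12 against 44, 33 and 27, with a log2 fold change of 1.89 ± 0.84 (SE). The adjusted p values of the 5 genes ran from 0.0932 (ZFAND5) to 0.23 (ADRM1) in edgeR's test. Each of the 5 lost the criterion without at least 1 library. FAF1 ranged from 1.40 without Si-LIPG library 1 to 3.76 without NC library 3, and missed the criterion without NC library 1, NC library 2 or Si-LIPG library 1. ADRM1, from 0.90 to 1.90, missed it without NC library 1 or 2 or Si-LIPG library 2 or 3. UBE3C missed it without NC library 3 or Si-LIPG library 3, ZFAND5 without Si-LIPG library 3 and PAAF1 without NC library 2. PAAF1 had too few counts to be tested without Si-LIPG library 1 or 3. With the gene length correction the unadjusted p in edgeR's test was 0.0632 for ADRM1, 0.0642 for UBE3C and 0.0706 for FAF1, and with DESeq2 size factors 0.0523 for ADRM1.

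By role, 1 of 2 tested assembly factors, 2 of 6 cofactors of the regulatory particle, 1 of 6 shuttle factors and 1 of 6 genes of VCP and its cofactors rose. Of the ubiquitin genes, the ubiquitin activating enzymes, the transcription factors of the proteasome genes and the interferon and antigen presentation genes, 0 of 2, 0 of 2, 0 of 3 and 0 of 6 passed. Over all tested genes 7.83% were higher and 12.9% lower at the criterion, and these roles hold too few genes for a comparison with those shares. NFE2L1, the transcription factor that raises proteasome genes when the proteasome is inhibited, had 64.8, 119 and 132 CPM in the NC against 100.4, 112 and 116 CPM in the Si-LIPG libraries, and a log2 fold change of 0.04 ± 0.35 (SE). NFE2L2, its relative in the oxidative stress response, had a log2 fold change of -0.51 ± 0.35 (SE). Of the 13 interferon and antigen presentation genes in the files, 11 were detected. Their summed CPM was 263 to 309 in the NC groups and 281 to 365 in the Si-LIPG groups. The 2 others, ISG15 and NLRC5, were at 0 in all 6 libraries, as were PSMB8 and PSMB9.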

How the data were processed

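RNA-seq of 3 NC and 3 Si-LIPG libraries was analysed, with groups and replicate numbers from the sample titles. The authors deposited raw counts per gene, 1 file per library, and FPKM values of the same genes in 1 table, scaled by gene length and by reads on genes. The submitters' processing notes name fastp, HISAT2, SAMtools and HTSeq. The genome build and the strand setting are not given in the sources used here. Rows for reads that named no gene, 97.1% to 99.0% of each library, were left out of library sizes except where all reads were the scale.

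The proteasome genes and the gene lists were chosen with earlier results of these data known. Counts were tested in R 4.3.3 with edgeR 4.0.16 (filterByExpr by group, TMM factors of 0.601 to 1.37, quasi-likelihood test without covariates, Benjamini-Hochberg over 6574 genes), after a check on simulated data. The criterion, as in the study, was a fold change above 1.5 with p below 0.05 before adjustment. Standard errors are the log2 fold change over the root of the F statistic. Alternatives were DESeq2 1.42.0 (the study's tool), other scalings, filters and fold thresholds, a gene length correction, a covariate, a replicate block, limma 3.58.1 on log2(FPKM + 1) and log2(FPKM + 0.1), and leaving out each library. Named with values were genes past an adjusted p of 0.05 or the criterion, catalytic subunits, activators, and the highest and lowest FPKM of each group. Other genes were chosen after their values were seen (PSMC2, PSMC3, the PSMD genes without overlap, NFE2L1, NFE2L2, the neighbours). Promoter and protein sequences were not used here. Replicates differed by more than sampling noise (ratio of chi-square to its degrees of freedom, 4.21 to 12.5).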

Additional observations from a re-analysis of the deposited data

How the results depend on the processing

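The counts of 3 higher, 3 lower and 1 adjusted p under 0.05 among 36 proteasome genes, and their median log2 fold change of 0.35, changed with several settings. Library sizes without TMM gave 16 higher and 1 lower with a median of 0.97, where 24.2% and 6.01% of all tested genes were. Its 1 adjusted gene was PSME4 (0.0495 in edgeR's test), with PSMA8 at 0.0872, where 1.87% of all tested genes were adjusted. Limma on log2(FPKM + 0.1) gave 10 higher, 1 lower and 0 adjusted with a median of 1.03. With log2(FPKM + 1) limma gave 13 higher, 1 lower and 0 adjusted with a median of 1.01. By limma 19.0% and 23.0% of all tested genes were higher, 6.39% and 6.13% lower, and 0 adjusted in either fit. Scaling to all reads gave 26 higher, 0 lower and 3 adjusted with a median of 1.83, where 46.1%, 0.0304% and 11.4% of all tested genes were. It turned PSMA7 to 0.47 and PSMG2 to 0.09, and gave 23 of the other ubiquitin-proteasome genes at the criterion against 5. A covariate for the percentage of reads on genes left 0 higher, 0 lower and 0 adjusted, with PSMA8 at 0.15 and PSMG2 at 0.28. Of all tested genes 2.04% met the criterion and 0 were adjusted with this covariate. No filter on low counts gave 5 higher, where 6.70% of 14848 genes were. That set, also that of DESeq2, includes genes with too few reads for the main fit, so its shares are not like for like. An adjusted p under 0.05 was reached by 2 genes with DESeq2, with at least 10 counts in every library and with the length correction, where 4.18%, 25.9% and 6.62% of all tested genes reached it. The causes were not tested. Leaving out each library gave 1 to 4 higher, 1 to 3 lower, 0 to 2 adjusted, medians of 0.28 to 0.41, and 1 to 8 of the other pathway genes. Over all tested genes these fits gave 3.49% to 9.87% higher and 8.95% to 13.3% lower. Without Si-LIPG library 3, 1 higher (PSME4) and 1 lower (PSMA8) passed, where 3.59% and 9.50% of all tested genes did. The adjusted count was 0, as it was over all tested genes, without NC library 1 or 2 or Si-LIPG library 2 or 3. It was 2 without NC library 3 or Si-LIPG library 1, where 6.81% and 9.02% of all tested genes were adjusted. The other pathway genes numbered 3 without NC library 1 or Si-LIPG library 1, 8 without NC library 3 and 1 without Si-LIPG library 3. The replicate block gave 8 higher, 3 lower and 5 adjusted, where 10.4%, 13.2% and 14.1% of all tested genes were. With the block PSMC2 was higher at 1.57 (adjusted p 0.0279 in edgeR's test). However, same-numbered libraries correlated at 0.21, 0.064 and 0.105, so the numbers were not taken as pairs, and NC library 2 correlated best with Si-LIPG library 3 (0.089). DESeq2 size factors, upper quartile factors and fold thresholds of 1 and 2 each gave 3 higher. Counts of 0 to 20 in many NC libraries limit what could be detected for PSMA4, PSMB7, PSMD5, PSME2 and PSME4. Comparisons of promoters and proteins were not run, since no sequence was used.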
